A study of Homo sapiens with 10 samples.

Results

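The genes described here build, crosslink or protect the cornified envelope of squamous epithelium: IVL, SPRR1A, SPRR1B, SPRR3, SCEL, TGM1, PI3, A2ML1 and RHCG. Every probe set of the deposited value table that is annotated to exactly 1 gene, that gene being one of these, was taken. This gave 16 probe sets of 9 genes, out of 41091 probe sets naming exactly 1 gene and 54675 on the array. A probe set is a group of short oligonucleotides that together read 1 transcript or a few related ones. A gene with several probe sets therefore has several readings here, and each is reported.

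Expression was measured in total RNA on 10 Affymetrix HG-U133 Plus 2.0 arrays from RWPE-1, human prostate epithelial cells that are immortal but form no tumours. All cells had received MSCV retroviruses and had been selected as stable clones under normal growth. All expressed the bacterial biotin ligase BirA. The control cells expressed BirA alone (3 arrays, A to C), the ETV1 cells BirA and ETV1 (4 arrays, A to D), and the cells labelled ERG expressed BirA and ERG (3 arrays, A to C). ETV1 and ERG are transcription factors of the ETS family that gene fusions activate in prostate cancer. The comparisons ask how the genes differ when each factor is overexpressed. The design text names 3 biological replicates, while 4 arrays are labelled ETV1. Nothing says how many clones the arrays of a group represent or whether the cultures were separate, so p-values measure only the spread between these arrays, which may be technical. Silencing in LNCaP and VCaP cells was not analysed here.

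The cornified envelope is a protein shell that forms beneath the plasma membrane and replaces it when a keratinocyte completes terminal differentiation. Transglutaminases join its precursors by covalent bonds: involucrin is laid down early as a scaffold, small proline-rich proteins bridge between other components, and sciellin is added beneath the membrane. Glandular prostate epithelium does not normally cornify, but its basal cells share keratins with squamous epithelium, and squamous metaplasia of the prostate is known under oestrogen exposure and after androgen withdrawal.

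IVL, SPRR1A, SPRR3 and SPRR1B are neighbours in the epidermal differentiation complex on chromosome 1, from the start of IVL at 152908546 to the end of SPRR1B at 153032900 (RefSeq, GRCh38.p14). The other genes are single loci: A2ML1 at chr12:8822621-8887459, SCEL at chr13:77535706-77645263, TGM1 at chr14:24249114-24263177, RHCG at chr15:89471407-89496583 and PI3 at chr20:45174902-45176544. RefSeq promoter windows on GRCh38.p14 were matched for 6 of the 9 genes. The 250 bases before the start are shown for the 5 genes whose window holds TGANTCA, because they contain every small proline-rich gene of the set and the gene with the largest difference in ETV1 cells. Capitals mark each TGANTCA, a pattern that takes in TGAGTCA and TGACTCA, the letters that AP-1 factors are known to bind.
SPRR1B, chr1:153030953-153031202, plus strand: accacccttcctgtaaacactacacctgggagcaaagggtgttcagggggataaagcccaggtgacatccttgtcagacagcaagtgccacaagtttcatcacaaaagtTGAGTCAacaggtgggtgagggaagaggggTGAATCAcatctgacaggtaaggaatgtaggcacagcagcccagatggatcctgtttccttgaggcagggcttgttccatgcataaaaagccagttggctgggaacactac
SCEL, chr13:77535456-77535705, plus strand: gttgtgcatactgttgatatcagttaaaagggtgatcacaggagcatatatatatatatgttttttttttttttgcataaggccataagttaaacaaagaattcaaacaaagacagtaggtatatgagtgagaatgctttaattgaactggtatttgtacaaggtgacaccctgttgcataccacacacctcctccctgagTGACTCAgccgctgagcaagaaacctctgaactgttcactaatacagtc
SPRR1A, chr1:152983831-152984080, plus strand: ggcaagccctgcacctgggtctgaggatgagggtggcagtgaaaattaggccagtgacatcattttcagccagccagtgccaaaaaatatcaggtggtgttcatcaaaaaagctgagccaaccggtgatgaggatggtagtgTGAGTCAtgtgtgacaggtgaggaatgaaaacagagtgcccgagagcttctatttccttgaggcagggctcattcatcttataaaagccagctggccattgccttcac
IVL, chr1:152908296-152908545, plus strand: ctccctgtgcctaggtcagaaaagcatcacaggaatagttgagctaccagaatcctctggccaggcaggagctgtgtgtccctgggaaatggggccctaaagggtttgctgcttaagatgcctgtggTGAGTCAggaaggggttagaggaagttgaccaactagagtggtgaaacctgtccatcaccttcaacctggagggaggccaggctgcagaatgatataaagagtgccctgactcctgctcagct
SPRR3, chr1:153001499-153001748, plus strand: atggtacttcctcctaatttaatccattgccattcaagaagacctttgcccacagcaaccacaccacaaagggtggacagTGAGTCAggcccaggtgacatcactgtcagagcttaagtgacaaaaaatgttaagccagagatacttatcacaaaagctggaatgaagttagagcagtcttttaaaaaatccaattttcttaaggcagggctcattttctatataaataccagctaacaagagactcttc

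TGANTCA reads the same on both strands and overlaps none of the other matches in these windows; GGAAG and CGGAAG contain GGAA. It occurs in 6.57% of 35116 promoter windows of this length. SPRR1B has it at -141 and -111 from the start, SPRR1A at -108, IVL at -123, SPRR3 at -170 and SCEL at -49. The match of SPRR1B at -111 is TGAATCA, that of SCEL TGACTCA, and the others are TGAGTCA. In both windows of A2ML1, chr12:8822371-8822620 and chr12:8844754-8845003, the letters are absent. GGAA, the core of ETS sites, searched on both strands, occurs in 92.7% of all windows, and was found 6 times before SPRR1B, 4 times before IVL, 2 times each before SPRR1A and SPRR3, 5 and 3 times in the windows of A2ML1 and 0 times before SCEL. GGAAG occurs in 65.1% of all windows and among these genes before IVL, SPRR3, SPRR1B and the later start of A2ML1. The longer CGGAAG occurs in 16.5% of all windows and in 0 of these. TATAAA lies before IVL, SPRR1A, SPRR3 and the first start of A2ML1, and in 10.7% of all windows. The motifs were chosen after the sequences were seen, and a match is a string of letters, not a bound site.

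Differences are given as log2(intensity + 16), a scale on which changes of dim probe sets are understated, with a standard error (SE) and a p-value from limma adjusted by Benjamini-Hochberg over 25969 tested probe sets. A probe set was tested if it exceeded the array's median on at least 3 arrays, and is said to have risen or fallen where the adjusted p is under 0.05. The filter left 12 of the 16 probe sets, of 8 genes. RHCG, 1 reading of A2ML1 and 2 of SCEL stayed out. Some of the 12 entered only through the arrays on which they were high: TGM1 and SPRR3 232082_x_at exceeded the median on the 3 ERG-labelled arrays alone, SCEL 232056_at on the 4 ETV1 arrays alone, and SCEL 206884_s_at on the 4 ETV1 arrays, 1 control and 1 ERG-labelled array. A2ML1 1553505_at exceeded it on 2 control, 2 ETV1 and 0 ERG-labelled arrays. These probe sets had to differ between those arrays and the others once tested, so counts and medians over the 12 are descriptions and support nothing. For that difference from control, their adjusted p with no filter is given as well. Precision is limited by how few arrays each group has. In bulk RNA, more cells of a kind and more transcript per cell cannot be told apart.

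Of the 5 probe sets of ETV1, 3 rose in the cells labelled with it, by 2.67, 2.69 and 3.67 on the log2 scale, and 221910_at (0.14, limma adjusted p = 0.66) and 221911_at (0.19, not tested) did not pass. The largest rise, of 217053_x_at, was from 88.1 ± 29.0 (SD, n = 3) on the control arrays to 1320 ± 355 (n = 4) on the ETV1 arrays. The ERG label was not settled by its gene, whose brightest probe set fell from 186 ± 4.61 to 9.43 ± 1.57. Its dim readings, none of them tested, had higher means on these arrays. The dimmest, 211626_x_at, went from 9.04 ± 3.23 to 36.5 ± 12.3. The means of 213541_s_at went from 25.5 ± 12.5 to 33.5 ± 7.35, and those of 241926_s_at from 17.2 ± 3.52 to 26.4 ± 7.76. The arrays are therefore called ERG-labelled throughout. The ERG-labelled arrays also stood apart over the whole table: their Spearman correlation with control arrays was 0.766 to 0.811, against 0.956 to 0.969 for ETV1 arrays, and their median intensity was 48.5 to 52.6, against 70.9 to 75.5 on the other arrays. The signal of ACTB near its 3 prime end over that near its 5 prime end, which rises as RNA degrades, was 2.75 to 3.07, against 1.24 to 1.40 on the others. Of genes with at least 2 called probe sets, 96.0% (1101 of 1147) had all of them called in 1 direction in ETV1 cells, and 49.7% (2481 of 4989) on the ERG-labelled arrays. In that comparison a factor's effect and whatever else sets these arrays apart cannot be told apart. Basal markers of prostate epithelium were present on every array: all 6 that the array reads as single genes, KRT5 and KRT14 among them, exceeded the array's median on all 10 arrays. The summed intensity of the basal list was 29559 to 30795 on the ERG-labelled and 21428 to 23817 on the control arrays, and that of the luminal, LNCaP and VCaP list (8 of 10 genes read) was 11473 to 12037 and 9198 to 10698. Summed intensities of fibroblast, endothelial, leukocyte and neuroendocrine markers were lower on the ERG-labelled arrays than on the control arrays, at 246 to 329 against 974 to 1247 for fibroblast (6 of 6 genes read), 197 to 227 against 1482 to 1660 for endothelium (5 of 5), 105 to 152 against 266 to 348 for leukocytes (4 of 6) and 114 to 135 against 385 to 459.8 for neuroendocrine cells (4 of 5). Most of the control sum came from PECAM1 (mean 1393) for endothelium, and from COL1A1 (679) and DCN (284) for fibroblast. None of the markers in these lists was at 0, the lowest being SYP at 1 and LUM at 1.04 on single arrays. The part of these markers in the results was not tested.

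ETV1 cells had more RNA of sciellin and of the small proline-rich protein SPRR1B than control cells, with a smaller difference in PI3. No tested probe set of involucrin, SPRR3 or A2ML1 passed the test. Of the 12 tested probe sets 5 rose, both of SCEL, SPRR1B, 1 of SPRR1A and 1 of PI3, and 1 fell, the other of SPRR1A. Over all tested probe sets 10.4% rose and 13.1% fell. The median difference of the 12 was 0.49, against -0.03 over all tested. By the plain range of values, 5 of the 16 probe sets lay above control without overlap, 2 lay below, and 9 overlapped. Over all 41091 probe sets naming 1 gene, 11.5% lay above control without overlap and 13.4% below.

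**Figure D1:**
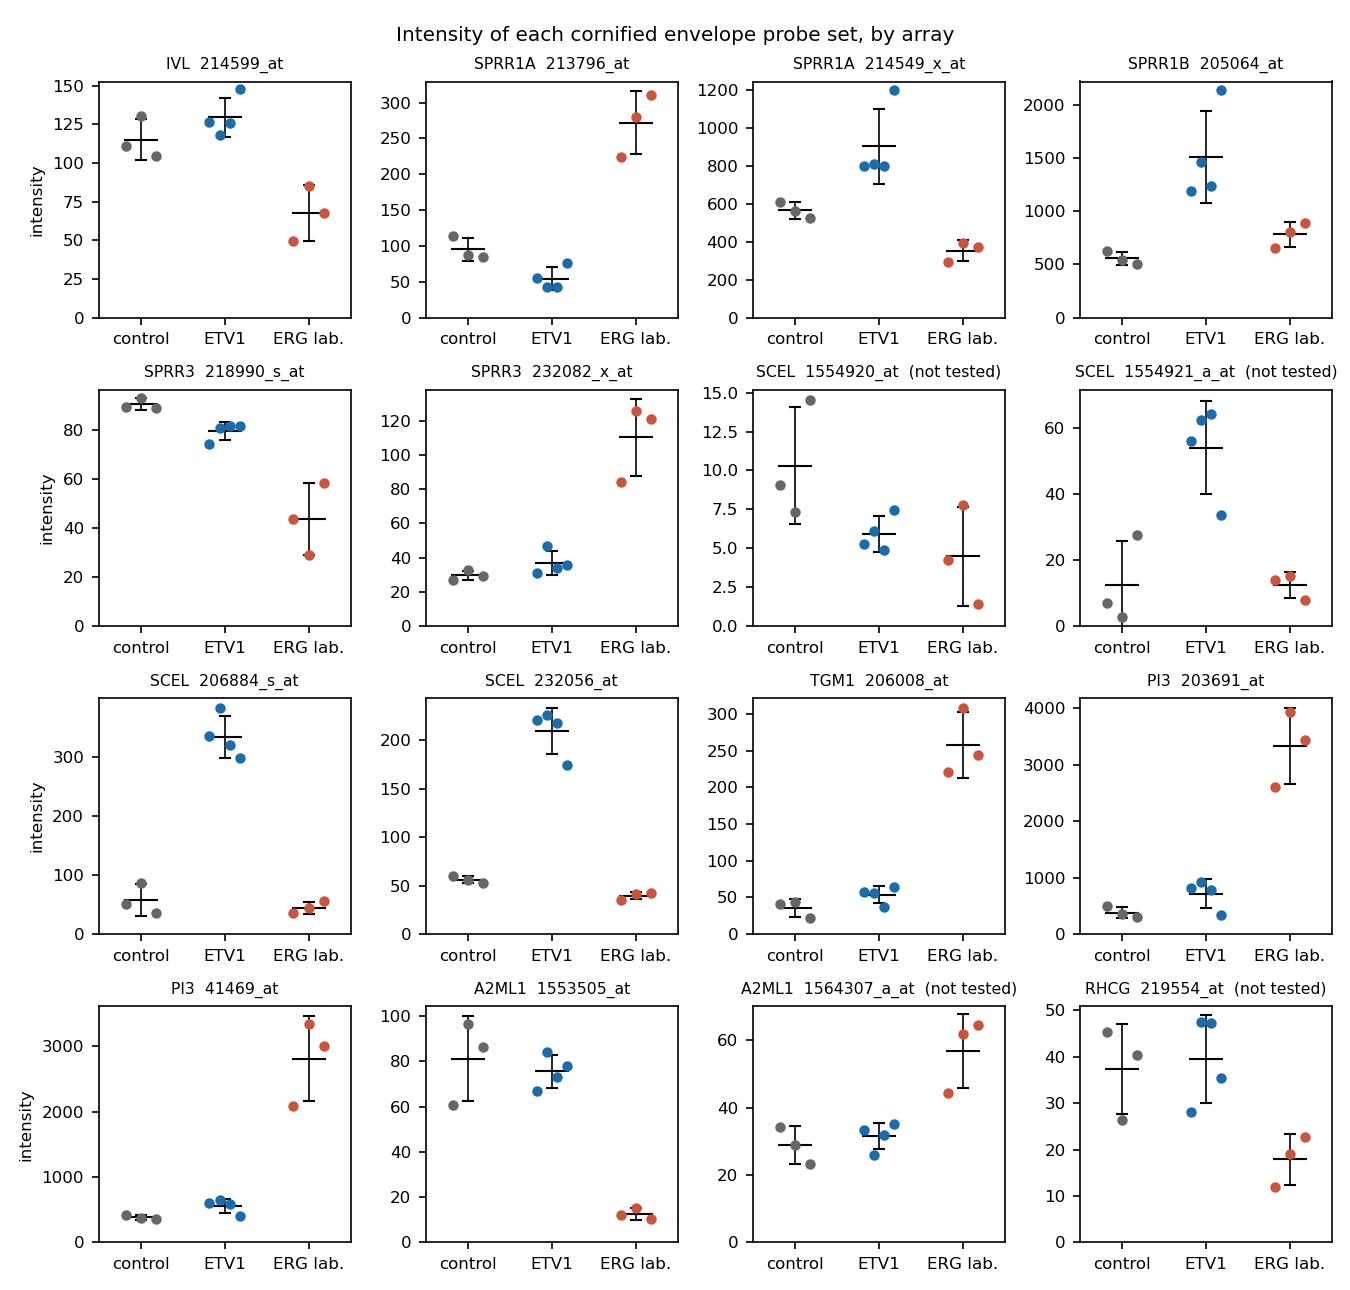
Intensity (linear scale, each panel with its own axis from 0) of the 16 probe sets on the control, ETV1 and ERG-labelled (ERG lab.) arrays, with 1 point per array in the order of the replicate letters; the long line is the mean and the bar the SD. Both tested probe sets of SCEL separate the ETV1 arrays from all others, with means of 334 and 209.7, and both of PI3 separate the ERG-labelled arrays, with means of 3325 and 2807.

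Sciellin (SCEL), a precursor that transglutaminases attach to the envelope, showed the largest difference in ETV1 cells. Its probe set 206884_s_at read 50.9, 87.0 and 35.6 on control arrays A to C, 335, 382, 320.5 and 298 on ETV1 arrays A to D, and 35.0, 43.7 and 55.4 on the ERG-labelled arrays A to C. Every ETV1 array exceeded every other array, and the control and ERG-labelled arrays overlapped. The mean was 5.77 times that of control, and the difference was 2.30 (SE 0.20, adjusted p = 7.0e-07 by limma, and 2.5e-05 with no filter). The probe set 232056_at read 59.6, 55.7 and 52.4 on the control, 221, 226, 217 and 175 on the ETV1 and 35.7, 41.2 and 42.6 on the ERG-labelled arrays. Here too the ETV1 arrays stood above all others, 3.75 times control on average, with a difference of 1.65 (SE 0.13, adjusted p = 3.3e-07, and 8.9e-06 with no filter). Under the settings and left-out arrays that tested them, the rise of both probe sets kept passing the test, with differences of 1.73 to 2.60 and 1.19 to 1.88.

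The dimmer readings of SCEL exceeded the array's median on 0 arrays and were not tested. On 1554921_a_at the control arrays read 6.82, 2.59 and 27.5, the ETV1 arrays 56.2, 62.4, 64.1 and 33.5, and the ERG-labelled arrays 14.1, 15.1 and 7.85. The ETV1 arrays were again the highest, without overlap, and with no filter the difference was 1.38 (adjusted p = 0.0039 by limma, where 12.2% of 41091 probe sets passed in either direction). On 1554920_at all arrays read between 1.41 and 14.5 and the groups overlapped.

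SPRR1B, a small proline-rich protein that bridges other precursors in the envelope, read 623, 545 and 503 on control arrays A to C and 1194, 1465, 1242 and 2137 on ETV1 arrays A to D. All ETV1 arrays lay above all control arrays, with replicate D the highest. The mean went from 557 ± 60.8 (SD, n = 3) to 1509 ± 435 (n = 4), 2.71 times control, and the difference was 1.38 (SE 0.18, adjusted p = 6.1e-05 by limma). It passed under every setting and left-out array tried, at 1.20 to 1.60, the lowest value being without ETV1 replicate D. The ERG-labelled arrays read 654, 808 and 887, above all control arrays and below all ETV1 arrays.

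SPRR1A, the close relative of SPRR1B, gave opposite answers from its probe sets. On 214549_x_at the control arrays read 610.1, 563 and 523 and the ETV1 arrays 801, 808, 799.6 and 1198. The groups did not overlap, 3 ETV1 arrays being almost equal and replicate D well above them. The difference was 0.64 (SE 0.16, adjusted p = 0.0094 by limma), and 0.50 without replicate D (adjusted p = 0.024). On 213796_at the control arrays read 114, 87.4 and 84.2 and the ETV1 arrays 55.4, 43.2, 42.5 and 76.4. This time every ETV1 array was below every control array. The probe set exceeded the array's median on 3 control, 1 ETV1 and 3 ERG-labelled arrays. The difference was -0.68 (SE 0.17, adjusted p = 0.00999 by limma, and 0.029 with no filter). Without control replicate A the latter was -0.56 and no longer passed (adjusted p = 0.065), which removes the only fall among the 12.

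The suffix _x_at marks a probe set whose oligonucleotides can also match other transcripts, and SPRR1A and SPRR1B are close paralogs. Whether 214549_x_at reads SPRR1A alone was not tested, and SPRR1A is reported as uncertain. Such disagreement was uncommon in this comparison: 46 of the 1147 genes with at least 2 called probe sets had them called in opposite directions.

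SPRR3, a small proline-rich protein typical of oral and oesophageal epithelium, did not pass the test in ETV1 cells. Its probe set 218990_s_at read 89.6, 93.4 and 89.4 on the control arrays and 74.4, 81.1, 81.8 and 81.8 on the ETV1 arrays. The ETV1 arrays were slightly lower without overlap, and the difference was -0.16 (95% interval -0.48 to 0.17, adjusted p = 0.51 by limma). Its probe set 232082_x_at read 27.1, 32.5 and 28.9 on the control and 31.0, 47.0, 34.2 and 35.8 on the ETV1 arrays, which overlapped. That difference was 0.21 (95% interval -0.11 to 0.53, adjusted p = 0.35).

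Involucrin (IVL), the early scaffold of the envelope, read 111, 130.2 and 104 on the control arrays and 126, 118, 126 and 148 on the ETV1 arrays. The groups overlapped. The difference was 0.15 (SE 0.15, 95% interval -0.18 to 0.48, adjusted p = 0.53 by limma), so a change of up to 0.48 is within the interval.

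TGM1, the membrane-bound transglutaminase that crosslinks the precursors, read 40.6, 44.4 and 21.5 on the control arrays and 58.0, 56.5, 37.5 and 64.1 on the ETV1 arrays. ETV1 replicate C lay among the control arrays and the other ETV1 arrays above them. The difference of 0.46 (SE 0.19, 95% interval 0.06 to 0.85) did not pass (adjusted p = 0.087 by limma), and without ETV1 replicate C it was 0.58 and passed (adjusted p = 0.042).

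PI3 encodes elafin, an elastase inhibitor that transglutaminases can anchor to the envelope. Its probe set 203691_at read 493, 350.9 and 307 on the control arrays and 816, 921, 785 and 339 on ETV1 arrays A to D. Replicates A to C lay above all control arrays, and replicate D among them. The difference was 0.81 (SE 0.27, adjusted p = 0.040 by limma). The probe set 41469_at read 426, 376 and 353 on the control and 609, 651, 584 and 408 on the ETV1 arrays, again with replicate D alone among the controls, and its difference of 0.51 (SE 0.18) missed the threshold (adjusted p = 0.0503).

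Both PI3 calls turned on single arrays and on settings. With all arrays kept, 203691_at did not pass with no filter, with trend and robust variance, with 2 groups only or with a pseudocount of 1 (differences 0.81 to 0.83, adjusted p = 0.067 to 0.099). In turn 41469_at passed after quantile normalization, with the 75th percentile filter, trend and robust variance, array weights, 2 groups only or a pseudocount of 64 (0.47 to 0.62, adjusted p = 7.4e-04 to 0.044). Without ETV1 replicate D the differences were 1.12 and 0.66, and both passed (adjusted p = 4.2e-04 and 0.011). Without ETV1 replicate A, B or C the first was 0.71, 0.66 and 0.73 and did not pass, nor did it without control replicate B or C, at 0.76 and 0.67 (adjusted p = 0.092 to 0.16 over these 5 fits). The second also passed without any 1 of the ERG-labelled arrays, at an unchanged 0.51, with adjusted p of 0.034 to 0.045.

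A2ML1, a broad protease inhibitor of the upper epidermis, read 60.5, 96.8 and 86.4 on the control arrays and 67.1, 84.4, 73.1 and 78.2 on the ETV1 arrays with 1553505_at. The ETV1 values lay inside the control range, and the difference was -0.07 (95% interval -0.38 to 0.25, adjusted p = 0.79 by limma). Its reading 1564307_a_at, not tested, was 34.4, 29.1 and 23.2 on the control and 33.4, 26.0, 31.9 and 35.1 on the ETV1 arrays. RHCG, an ammonium transporter of squamous epithelium and kidney, exceeded the array's median on 0 arrays. It read 45.2, 26.4 and 40.5 on the control, 28.1, 47.4, 47.2 and 35.5 on the ETV1 and 12.0, 19.0 and 22.8 on the ERG-labelled arrays, so control and ETV1 arrays overlapped.

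**Figure D2:**
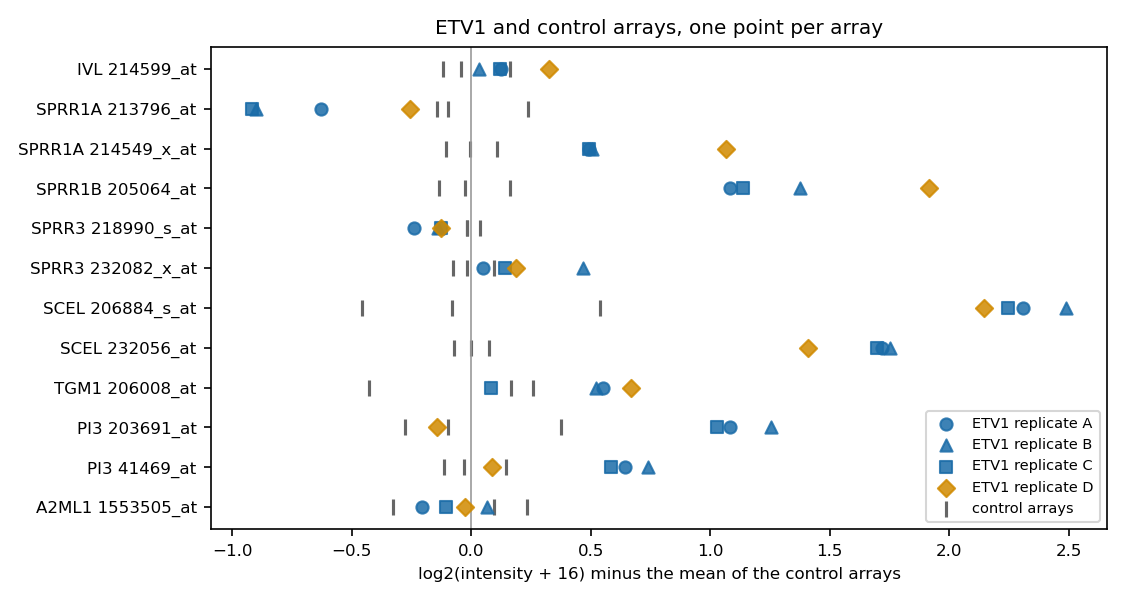
Each ETV1 array's log2(intensity + 16) minus the mean of the control arrays, for the 12 tested probe sets; blue symbols are ETV1 replicates A to C, the orange diamond is replicate D, and grey ticks are the 3 control arrays. Replicate D is the highest ETV1 array for SPRR1B (1.91) and SPRR1A 214549_x_at (1.06) and the lowest for PI3 203691_at (-0.14) and SCEL 232056_at (1.41).

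The ETV1 arrays thus differed among themselves in 2 ways around replicate D. For SPRR1B, both probe sets of SPRR1A, IVL and TGM1 replicate D was the highest of the ETV1 arrays, which on SPRR1A 213796_at puts it nearest to control, and for both tested probe sets of SCEL and both of PI3 it was the lowest. The same array read 276 for the 5 prime part of 18S ribosomal RNA, against 680 to 874 on ETV1 replicates A to C and 79.4 to 159 on the control arrays. Summed over the 8 luminal markers that the array reads as single genes, of 10 listed, intensity was 5905 to 8474 on the ETV1 arrays and 9198 to 10698 on the control arrays. Summed over 6 of 8 basal markers it was 29073 to 29522 and 21428 to 23817. The part of these differences in the results was not tested.

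On the ERG-labelled arrays PI3 on both probe sets and TGM1 on its single one were far above control. A2ML1 was far below on its tested reading, while SPRR1A and SPRR3 were split between their own probe sets. Of the 12 tested probe sets 6 rose, those of TGM1 and PI3, SPRR1B and 1 each of SPRR1A and SPRR3, and 5 fell. Over all tested probe sets 43.3% rose and 35.1% fell, so a call in either direction was the usual outcome in this comparison. The median of the 12 was 0.12, against 0.17 over all tested. Median centring of each array moved the latter to 0.54 and the share of calls that are higher from 55.2% to 66.9%. Ranges without overlap were found above control for 7 of the 16 probe sets and below control for 6. Over all 41091 probe sets 35.2% lay above and 31.3% below.

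TGM1 read 221, 308 and 245 on the ERG-labelled arrays A to C, and every one of them lay above all control and ETV1 arrays. The mean was 7.26 times control, with a difference of 2.43 (SE 0.20, adjusted p = 1.6e-08 by limma, and 5.4e-07 with no filter, TGM1 having entered the test through these arrays alone). PI3 read 2602, 3933 and 3441 with 203691_at and 2087, 3336 and 2998 with 41469_at, again above all other arrays. The means were 8.67 and 7.29 times control, and the differences were 3.07 (SE 0.29, adjusted p = 7.8e-08) and 2.79 (SE 0.19, adjusted p = 2.7e-09). These 3 probe sets passed under every setting and left-out array tried, at 1.69 to 2.88, 2.59 to 3.43 and 2.31 to 3.15.

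A2ML1 read 12.0, 15.3 and 10.3 with 1553505_at, below every control and ETV1 array. The difference was -1.75 (SE 0.16, adjusted p = 5.2e-08 by limma, and 9.9e-07 with no filter, the probe set having entered the test through other arrays alone). Its size ran from -2.59 to -0.92 over the settings and left-out arrays. The dimmer reading of A2ML1, 1564307_a_at, went the other way, at 44.4, 62.0 and 64.5, above every control and ETV1 array. With no filter that difference was 0.70 (adjusted p = 0.0017, where 65.9% of 41091 probe sets passed in either direction). RHCG, also not tested, was below all control arrays and had a difference of -0.65 with no filter (adjusted p = 0.00995).

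The small proline-rich genes had no single direction on these arrays. SPRR1A 213796_at read 224, 280.0 and 311, all above control, with a difference of 1.37 (SE 0.19, adjusted p = 5.1e-06 by limma). SPRR1A 214549_x_at read 291, 395 and 374, all below control, with a difference of -0.66 (SE 0.17, adjusted p = 0.0024). SPRR1A thus had its probe sets opposed in this comparison as well, each with the sign turned from that in ETV1 cells.

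SPRR3 was split in the same manner. Its probe set 232082_x_at read 84.4, 126 and 121, all above control (difference 1.46, SE 0.16, adjusted p = 5.2e-07 by limma, and 5.8e-06 with no filter, these being the only arrays through which it entered the test). Its probe set 218990_s_at read 43.6, 29.0 and 58.7, all below control (difference -0.87, SE 0.16, adjusted p = 1.4e-04, and 5.1e-04 with no filter). It exceeded the median on 3 control, 4 ETV1 and 1 ERG-labelled array. Over all genes, 2508 of 4989 with at least 2 called probe sets were opposed like this, so a direction for SPRR1A, SPRR3 or A2ML1 as genes is not given. TGM1, IVL and SPRR1B each have a single probe set, so their directions on these arrays are those of single readings.

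SPRR1B gave a difference of 0.47 (SE 0.20, adjusted p = 0.038 by limma). The call was lost when control replicate B or C or ERG-labelled replicate B or C was left out, at 0.46, 0.40, 0.45 and 0.38 (adjusted p = 0.079 to 0.12), and it was 0.14 after quantile normalization (adjusted p = 0.56). With no filter, array weights or a pseudocount of 1 the call was lost too, at 0.47, 0.35 and 0.48 (limma adjusted p = 0.061, 0.068 and 0.057). IVL read 49.5, 85.4 and 67.8, below every control array, with a difference of -0.67 (SE 0.16, adjusted p = 0.0015). After quantile normalization it was -0.27 and after median centring -0.30, and neither passed (adjusted p = 0.14 and 0.091). The call of SPRR1A 214549_x_at was likewise lost after median centring, at -0.30 (adjusted p = 0.11).

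SCEL, the gene with the largest difference in ETV1 cells, showed nothing of that size here. The difference was -0.24 (95% interval -0.68 to 0.21, adjusted p = 0.31 by limma) for 206884_s_at and -0.37 (SE 0.14, adjusted p = 0.025) for 232056_at. The second was 0.00036 after quantile normalization (adjusted p = 0.998). It was not called with control replicate A or B or ERG-labelled replicate A left out, at -0.33, -0.37 and -0.31. It was -0.0035 after median centring, and was not called with 2 groups only or a pseudocount of 64 (-0.37 and -0.21). The first passed in the lower direction without control replicate C, at -0.47 (adjusted p = 0.049), and with array weights, at -0.73 (adjusted p = 0.0027). It turned sign, without passing, after quantile normalization (0.13) and after median centring (0.13).

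**Figure D3:**
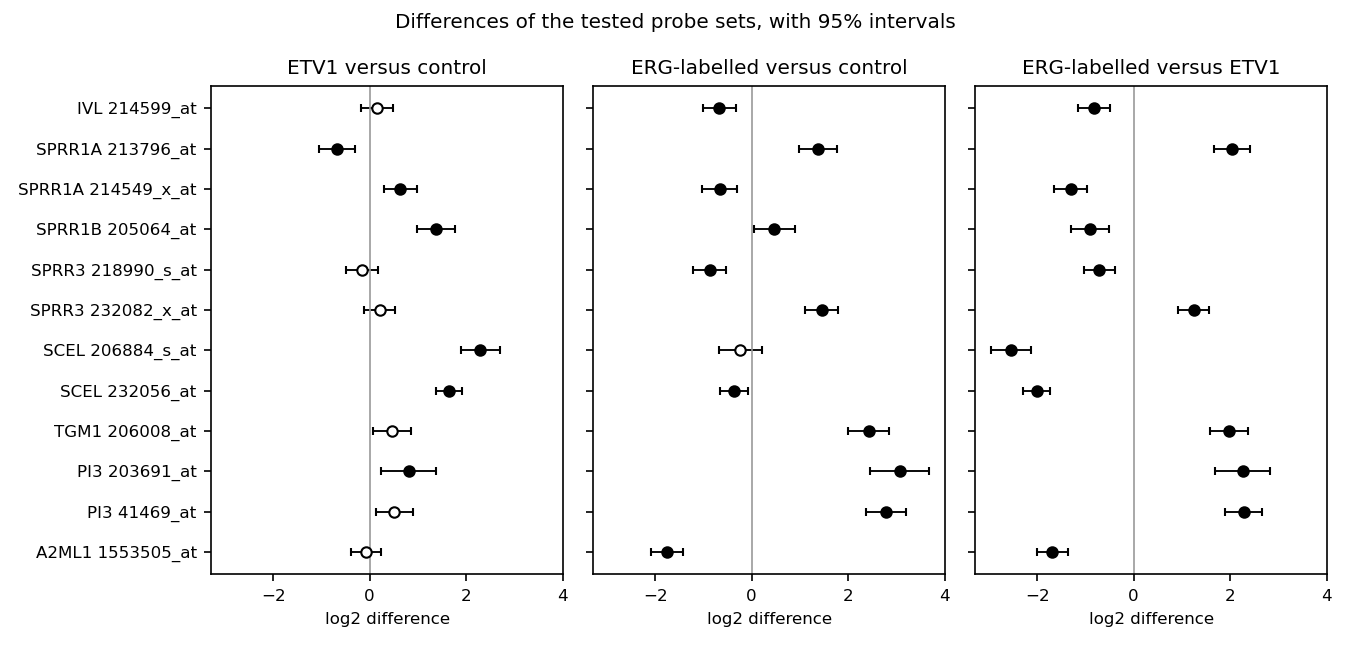
Difference on the log2(intensity + 16) scale with its 95% interval for the 12 tested probe sets in the 3 comparisons; filled points passed the adjusted p of 0.05 and open points did not. SCEL lies at 2.30 and 1.65 in ETV1 cells and at -0.24 and -0.37 on the ERG-labelled arrays, and PI3 and TGM1 lie at 2.43 to 3.07 on the ERG-labelled arrays.

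Set directly against the ETV1 arrays, the ERG-labelled arrays were higher for 5 of the 12 probe sets and lower for 7, where 45.6% and 36.5% of all tested probe sets were. The median of the 12 was -0.76, against 0.20 over all tested. SCEL was lower by the most, with differences of -2.54 (SE 0.20, adjusted p = 5.7e-09 by limma, and 2.4e-07 with no filter) and -2.01 (SE 0.13, adjusted p = 8.7e-10, and 3.3e-08 with no filter). SPRR1B was lower, at -0.90 (SE 0.18, adjusted p = 2.6e-04), and so was IVL, at -0.82 (SE 0.15, adjusted p = 1.2e-04). PI3 was higher on both probe sets, at 2.26 and 2.28, and TGM1 at 1.97 (SE 0.19, adjusted p = 5.4e-08, and 1.2e-06 with no filter). A2ML1 1553505_at was lower, at -1.68 (SE 0.15, adjusted p = 2.6e-08, and 5.4e-07 with no filter).

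In the same comparison SPRR1A was higher on 213796_at (2.05) and lower on 214549_x_at (-1.30), and SPRR3 was higher on 232082_x_at (1.25) and lower on 218990_s_at (-0.71). That last call alone was lost under a setting tried: it was -0.33 after quantile normalization and -0.32 after median centring (adjusted p = 0.058 and 0.0505). With no filter 69.9% of probe sets passed in either direction, among them SCEL 1554921_a_at at -1.29, RHCG at -0.71 and A2ML1 1564307_a_at at 0.61. The comparisons with control share the same 3 control arrays, so agreement between them is not counted here.

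Other genes of squamous differentiation were read from lists, each gene from its brightest probe set, over 14069 tested genes. In ETV1 cells 9.32% of these genes rose and 15.9% fell, with a median difference of -0.06. On the ERG-labelled arrays 48.0% rose and 32.3% fell against control (median 0.30), and 50.7% and 33.4% against ETV1 cells (median 0.36). Counts for the lists are read beside these shares. On the ERG-labelled arrays the direction of a listed gene is that of a single reading, where 2508 of 4989 genes had called readings opposed against control. Among the genes named below, KLK8, KLK7, SPRR2G, LCE1B, WFDC12 and WFDC5 exceeded the median on the ERG-labelled arrays alone, so they entered the test only through the group where they are high. In turn PRDM1, RARB, HOPX, TGM3, TGM5, CYP4F22, KRT2 and A2M exceeded it on 0 ERG-labelled arrays. Their falls on those arrays are therefore of genes that entered only through other groups, where they are higher. Neither SPRR2B nor TGM2 exceeded it on any control array. KLK5, ELOVL4 and TCHH exceeded it on 0 ETV1 arrays, and KRT80 on 1. The falls of KLK5, ELOVL4 and TCHH in ETV1 cells are thus also of genes that entered only through other groups, where they are higher.

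Among envelope precursors and corneocyte proteins outside the set, 14 of 32 listed genes were tested, of which 3 rose and 3 fell in ETV1 cells (median 0.16). SPRR2B, a small proline-rich protein of another subfamily, went from 41.4 ± 13.9 (SD, n = 3) to 204 ± 52.5 (n = 4), a difference of 1.94 (SE 0.20, adjusted p = 2.7e-06 by limma), read from an _x_at probe set. The extracellular matrix protein ECM1 rose by 0.57 and the calcium-binding protein S100A10 by 0.56. Those that fell were TCHH, trichohyalin of the hair follicle, at -0.73, the plakin EVPL, envoplakin, at -0.61, and the cysteine protease inhibitor CSTA at -0.56. On the ERG-labelled arrays 8 rose and 3 fell against control (median 0.64), led by SPRR2G at 2.70, SPRR2B at 1.82 and the late envelope protein LCE1B at 1.79, with SPRR4 at -2.47, LCE3D at -1.63 and EVPL at -0.70. Against ETV1 cells 8 were higher and 3 lower. The rise of SPRR2G against control ran from 1.48 to 4.38 over the settings, and it read 8.62 ± 8.76 (SD, n = 3) on the control arrays.

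The enzymes of crosslinking, lipid barrier and desquamation had 14 of 20 genes tested, of which 3 rose and 3 fell in ETV1 cells (median -0.02). The retroviral-like skin protease ASPRV1 rose by 0.59, the transglutaminase TGM5 by 0.52 and the lipid transporter ABCA12 by 0.48. Those that fell were the desquamation protease KLK5 at -1.10, the fatty acid elongase ELOVL4 at -0.76 and the membrane protease ST14, matriptase, at -0.74. Without control replicate B the count of rises was 1 in place of 3, since TGM5 (0.46) and ABCA12 (0.47) no longer passed (limma adjusted p = 0.062 and 0.10). ABCA12 was also lost without control replicate C (0.37) and without ETV1 replicate B, C or D (0.46, 0.49 and 0.44). With no filter or with the replicate block it did not pass either (0.48 and 0.44, limma adjusted p = 0.066 and 0.085). On the ERG-labelled arrays 4 rose and 8 fell against control (median -0.51), led by the protease KLK8 at 4.41, a size that depends on the pseudocount (2.81 to 6.43 over the settings), since KLK8 read 4.70 ± 3.91 (SD, n = 3) on the control arrays, and the hydroxylase CYP4F22 at -2.42, with TGM3 at -2.31 and TGM5 at -2.05. ELOVL4 (1.16) and KLK7 (0.81) were the next of those that rose. The difference of CYP4F22 ran from -4.09 to -1.22 over the settings, and it read 5.15 ± 2.89 (SD, n = 3) on the ERG-labelled arrays. Against ETV1 cells 5 were higher and 9 lower.

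Of keratins of suprabasal or activated squamous cells 5 of 12 were tested. In ETV1 cells KRT16, a keratin of activated keratinocytes, rose from 2033 ± 685 (SD, n = 3) to 3643 ± 953 (n = 4), a difference of 0.87, and KRT80 fell by 1.16 on the log2 scale. The rise of KRT16 was lost when control replicate C (0.55) or ETV1 replicate D (0.70) was left out, the only keratin that rose (limma adjusted p = 0.14 and 0.052). With all arrays kept it was lost with no filter, with trend and robust variance or with a pseudocount of 1 (limma adjusted p = 0.056, 0.0503 and 0.051). In the ERG-labelled comparison KRT80 (2.16) and KRT10 (0.75) rose, and KRT78 (-1.55), KRT16 (-1.54) and KRT2 (-1.48) fell. KRT10 was at 0.14 after quantile normalization and did not pass. Against ETV1 cells 2 were higher and 3 lower.

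The regulators of keratinocyte differentiation had 19 of 24 genes tested. In ETV1 cells 1 rose, GRHL3, a grainyhead factor of barrier formation, from 117 ± 19.4 (SD, n = 3) to 265 ± 36.3 (n = 4), a difference of 1.08 (SE 0.15, adjusted p = 7.2e-05 by limma). Of the 5 that fell, CEBPA was at -0.97, GRHL1 at -0.93 and the epithelial ETS factor ELF3 at -0.87 (median of the list -0.06). Of the regulators on the ERG-labelled arrays, 8 rose and 8 fell against control, led by the epithelial ETS factor EHF at 2.28, ZNF750 at 1.22 and GRHL3 at 0.91, and by PRDM1 at -3.12, RARB at -2.54 and HOPX at -1.62. The 8 falls were 5 without control replicate A. Against ETV1 cells 9 were higher and 6 lower.

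Family relatives of the set had 11 of 18 genes tested, TGM3 and TGM5 standing in the enzyme list too. In ETV1 cells 5 rose and 0 fell (median 0.52), and at an unadjusted limma p under 0.05 the counts were 6 and 0, where 13.3% and 22.9% of all tested genes were higher and lower; with no filter or with array weights 1 fell. Those that rose include the widely expressed transglutaminase TGM2 (0.90), ZNF185, which shares a LIM domain with sciellin (0.76), and SLPI, the protease inhibitor related to elafin (0.76). The 5 rises were 3 without control replicate B, where TGM2 (0.85) and TGM5 (0.46) did not pass. TGM2 was lost as well without control replicate C (0.90) and ETV1 replicate C (0.73). On the ERG-labelled arrays 6 rose and 4 fell against control, led by WFDC12 (2.43), TGM2 (1.85) and WFDC5 (1.68), and by TGM3, TGM5 and A2M (-0.50). A2M did not pass after quantile normalization (-0.12) or median centring (-0.14). Against ETV1 cells 3 were higher and 4 lower.

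**Figure D4:**
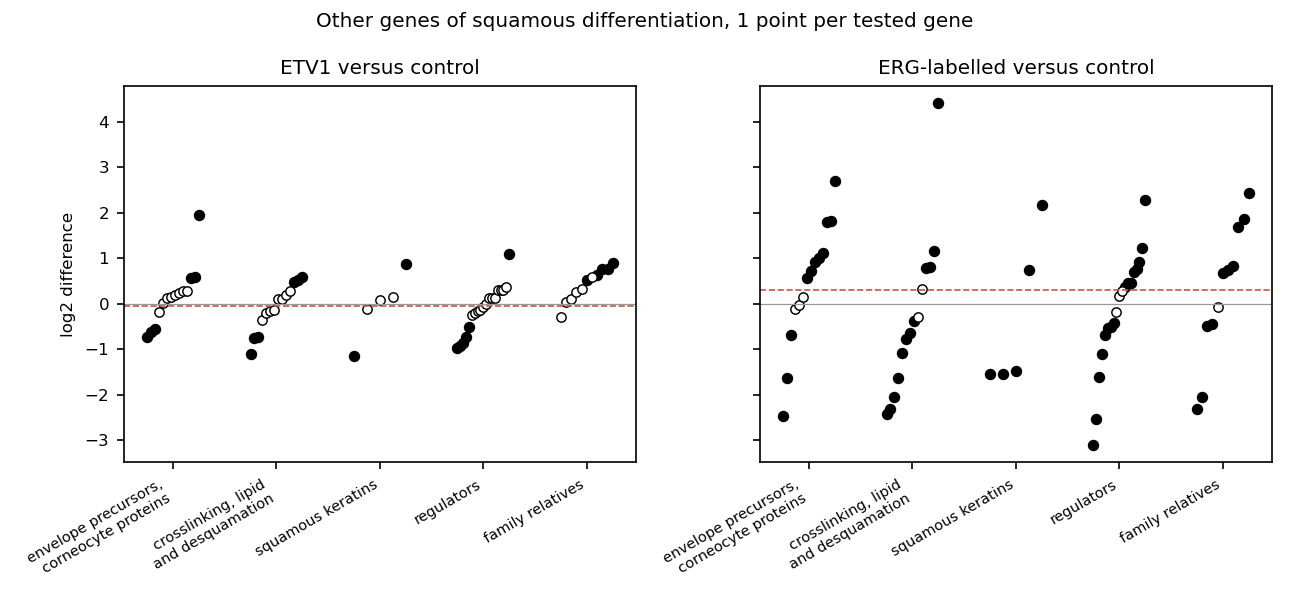
Difference from control on the log2(intensity + 16) scale of each tested gene of the 5 lists, 1 point per gene in order of its value, in ETV1 cells and on the ERG-labelled arrays; filled points passed the adjusted p of 0.05, and the dashed red line is the median of all tested genes (-0.06 and 0.30). SPRR2B stands highest at 1.94 in ETV1 cells, and KLK8 at 4.41 and PRDM1 at -3.12 bound the ERG-labelled values.

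To describe which other genes ran with the set, a profile was taken as the mean standardised log2 value of its 8 tested genes on each array, and other tested genes were ranked by Pearson's r with it. Over all 10 arrays the nearest were SERPINB5 (r = 0.988), a serpin of basal epithelium, DSG3 (0.983), a desmosomal cadherin of basal squamous layers, ALDH3A1 (0.972), HES2 (0.970) and TM4SF1 (0.968). Over the 7 control and ETV1 arrays alone they were ZNF136 (0.989), APH1A (0.988), CELP (0.978), ZNF524 (0.977) and TMEM129 (0.976). None of the names is common to both rankings. These points are arrays of 3 groups, share their array's scaling and were ranked among all tested genes, so the values are descriptions.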

How the data were processed

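The deposited intensity values, on a linear scale, number 1 per probe set and array; the summarisation and normalization behind them are not stated in the labels or the file header. Per the labels' protocols, RNA was extracted with Trizol and labelled as biotinylated cRNA. Values were used as deposited. Of the 54675 probe sets, 41091 name exactly 1 gene in the platform annotation, 1801 name several and 62 are controls; 54 of the one-gene probe sets had a gene identifier with no match in RefSeq.

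A pseudocount of 16 was added before log2. Probe sets above their array's median on at least 3 arrays were tested with limma (lmFit and eBayes, 1 model of 3 groups, 7 residual degrees of freedom). Tests were two-sided, p-values were adjusted by Benjamini-Hochberg over all of them, and the threshold was 0.05. The script was tested on simulated data.

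Named genes were every member and probe set, up to the 3 called genes of a list with the largest difference in each direction, and the 5 genes most like the members in each of 2 sets of arrays. Members and lists were chosen with earlier results of these data known. The choices varied were the scaling (quantile normalization or median centring), the filter (none, or the 75th percentile), the brightest probe set or the mean per gene, no _x_at or _s_at probe sets, trend and robust variance, array weights, 2 groups only, pseudocounts of 1 and 64, the replicate letter as a block, an adjusted p of 0.01, and each array left out. Tests ran in R 4.3.3 with limma 3.58.1 and data.table (version 1.17.8). Figures were drawn with matplotlib 3.10.9 and tables read with pandas 2.3.3, under Python 3.11.15. Promoter windows are RefSeq's, on GRCh38.p14.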

Additional observations from a re-analysis of the deposited data

Results flagged for a closer look

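On 4 of the 12 tested probe sets a single ETV1 array lay far from the other 3: its gap to the nearest of them, divided by the range of the 4 arrays, exceeded Dixon's 95% critical value for 4 arrays. Chance alone flags about 1 in 20 such groups, and probe sets share arrays. For SPRR1A 214549_x_at the ratio was 0.975, with ETV1 replicate D highest at 1198. For SCEL 232056_at it was 0.846, with replicate D lowest at 175. For PI3 203691_at it was 0.838, with replicate D lowest at 339. For SPRR3 218990_s_at it was 0.903, with replicate A lowest at 74.4.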

How the results depend on the processing

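Of the differences of single tested probe sets under other settings, 736 kept their side of the threshold, 32 lost a call and 14 gained a call. Of those called in the main fit, 1 turned sign (SCEL 232056_at, ERG-labelled versus control, 0.00036 after quantile normalization). Differences not called could turn sign and still stand among the 736. SCEL 206884_s_at did so in that comparison, from -0.24 to 0.13 after quantile normalization. In ETV1 cells 5 probe sets rose and 1 fell. The counts were 3 and 0 when each gene's probe sets were averaged, 3 rises with no _x_at or _s_at probe sets, and 0 falls with the brightest probe set per gene or a filter at the 75th percentile. Leaving out each array gave 4 to 6 rises and 0 to 1 falls. ERG-labelled versus control, main counts 6 and 5, gave 3 falls after quantile normalization, 2 after median centring and 3 with no _x_at or _s_at probe sets, 3 rises and 1 fall with the 75th percentile filter or the mean per gene, and 3 rises with the brightest probe set. ERG-labelled versus ETV1, main counts 5 and 7, gave 2 higher and 3 lower with that filter, 2 higher with the brightest probe set, 3 and 3 with the mean, and 4 lower with no _x_at or _s_at probe sets. Most of these settings test fewer of these probe sets or genes (5 to 8 in place of 12); for the others the cause was not tested. With the replicate block the counts were 6 and 1, 6 and 5, and 5 and 7. The letters are not known to pair arrays. Same-letter arrays had correlations of their deviations of -0.10 to 0.087, so no pairing was visible, which does not show that there was none. ETV1 replicate D has no partner letter, so the block takes it out of this comparison: PI3 41469_at was 0.66 with the block (limma adjusted p = 0.015), as it was without replicate D. In a fit of control and ETV1 arrays alone the counts were 5 and 1. Array weights called 4978 probe sets higher and 7864 lower over the whole table in ETV1 cells, against 2693 and 3409. Without weights 44.1% of these calls were higher, with 57.1% without control replicate A (1812 lower) and 31.2% without control replicate C. Against ETV1 cells the share of ERG-labelled calls that are higher was 55.5%, and 66.5% after median centring. Alternatives for the lists were chosen after seeing the data: 584 counts stayed within 1.5 times and 46 did not, and 1 gene turned sign, KRT10 in ERG-labelled versus ETV1, at -0.12 after quantile normalization. The number of arrays and the dimness of 4 probe sets limit what could be tested.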
